A study of Mus musculus with 4 samples.

Results

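Secreted antimicrobial and acute phase genes of the mouse mammary epithelium were followed through organoids grown from aged virgin female mice. The 10 genes were chosen by name as Ltf, Lcn2, Slpi, Saa1, Saa2, Saa3, Cd14, Ptx3, Wfdc3 and Fcgbp, and all 10 were found among the 32285 genes of the count tables. Each was measured in 3 epithelial lineages, separated per cell by the level of 2 other genes. Cells with at least 500 CPM of Krt14 were taken as basal, cells with at least 300 CPM of Areg as hormone receptor positive (HR+) luminal, and cells under 300 CPM of both as hormone receptor negative (HR-) luminal. A UMI is a molecular tag that marks 1 captured transcript. CPM is the count of UMIs of a gene scaled to a fixed total of gene UMIs in the cell or group of cells, a level per captured transcript and not per length of gene.

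The 4 libraries were droplet single-cell RNA-seq of organoids. Wild-type control and wild-type HU came from littermates with intact Brca2, and Brca2mut/WT control and Brca2mut/WT HU came from mice heterozygous for a germline truncating allele of Brca2, a gene needed for repair of DNA breaks by homologous recombination. HU is hydroxyurea, which stalls replication by depleting nucleotides, and it was given in repeated exposures with recovery between them, whereas control organoids were not exposed. Organoids of passage 0 and passage 4 were sequenced, so that cells given HU differ in how many exposures they had. Each condition was 1 library, labelled as holding 2 replicates, and all 4 carried cells marked with 4 antibody tags whose key was not given, so that the passage and the mouse behind each tag pool are not known here.

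Innate defense proteins are made by luminal cells of the resting, infected and regressing mammary gland and are released into milk or the duct lumen. They act in several ways. Lactoferrin (Ltf) and lipocalin 2 (Lcn2) withhold iron from bacteria, Lcn2 by binding bacterial siderophores. Slpi and Wfdc3 belong to the whey acidic protein family of protease inhibitors, the serum amyloid A proteins (Saa1, Saa2, Saa3) are acute phase proteins carried on lipoprotein, Cd14 is a co-receptor for bacterial endotoxin, Ptx3 is a soluble pattern recognition protein, and Fcgbp is a large mucus protein related to mucins.

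The upstream sequences of Lcn2 and of the 3 Saa genes are shown because Lcn2 was the most abundant of the 10 genes and because the Saa genes share upstream sequence. They are the 250 bases before the RefSeq start (build GRCm38.p6), printed on the strand of the gene. Lcn2 lies at chr2:32387740-32387989 on the minus strand, Saa1 at chr7:46742981-46743230 on the minus strand, Saa2 at chr7:46751583-46751832 on the plus strand and Saa3 at chr7:46715677-46715926 on the minus strand. Capitals mark a match to the C/EBP type motif TTGCNNAA, searched on both strands.
Lcn2: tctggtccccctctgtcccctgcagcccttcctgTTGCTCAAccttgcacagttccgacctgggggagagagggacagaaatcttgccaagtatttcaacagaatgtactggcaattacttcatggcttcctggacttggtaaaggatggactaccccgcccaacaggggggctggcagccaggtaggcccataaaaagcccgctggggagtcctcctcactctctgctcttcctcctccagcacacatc
Saa1: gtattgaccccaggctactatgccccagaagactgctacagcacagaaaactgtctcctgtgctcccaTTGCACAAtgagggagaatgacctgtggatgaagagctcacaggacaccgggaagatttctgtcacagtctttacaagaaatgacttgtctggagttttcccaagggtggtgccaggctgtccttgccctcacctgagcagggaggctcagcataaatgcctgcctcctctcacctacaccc
Saa2: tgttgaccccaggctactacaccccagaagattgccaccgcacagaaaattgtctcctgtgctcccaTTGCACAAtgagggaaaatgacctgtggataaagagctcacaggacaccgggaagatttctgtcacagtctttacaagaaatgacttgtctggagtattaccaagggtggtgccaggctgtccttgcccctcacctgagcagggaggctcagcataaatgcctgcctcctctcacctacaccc
Saa3: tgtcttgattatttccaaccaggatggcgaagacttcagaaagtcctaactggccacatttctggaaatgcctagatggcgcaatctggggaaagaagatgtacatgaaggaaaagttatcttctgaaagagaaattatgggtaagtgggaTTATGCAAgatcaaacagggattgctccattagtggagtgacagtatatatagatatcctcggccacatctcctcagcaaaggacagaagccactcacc

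The Saa1 and Saa2 stretches were identical at 238 of 249 aligned bases (95.6%), whereas Saa1 and Saa3 were identical at 154 of 205 (75.1%). The genes themselves are also near copies, and reads that map to both are discarded by the counting used, so that the levels of Saa1 and Saa2 are uncertain. Upstream sequences were held for 9 of the 10 genes, all but Cd14. A match to TTGCNNAA lay in 7 of these 9 (Ltf, Lcn2, Slpi, Saa1, Saa2, Saa3 and Ptx3), beside 9.55% of the 27025 mouse promoters of the same length. The STAT type motif TTCNNNGAA, present in 7.18% of all promoters, was in 0 of the 9, and the NF-kB consensus, present in 3.75%, was also in 0. No motif overlapped another in these windows. A match is a string of letters and was not tested for binding.

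After the cell filter of the study, 17360 of 33268 barcodes remained, from 3293 to 5312 a library, with a median of 24180 to 26893 UMIs per cell. HR- luminal cells were 74.9% to 86.8% of each library (14008 cells), basal cells 7.73% to 18.8% (2217) and HR+ luminal cells 3.00% to 3.74% (569). Each lineage carried its markers. Lalba reached 331 to 641 CPM among HR- luminal cells, with no more than 29.5 elsewhere, Krt5 at 1822 to 2861 in basal cells and at most 41.7 elsewhere, and Prlr at 927 to 1310 in HR+ luminal cells and at most 92.5 elsewhere. Summed over the 8 macrophage markers the level was 1.5 to 11.1 CPM in every lineage and library, with Ptprc, Adgre1, Tyrobp and C1qa at 0 throughout. Of the neutrophil markers, S100a8 was at 12.9 to 21.3 CPM in HR- luminal cells, 18.4 to 64.7 in basal cells and up to 239 in HR+ luminal cells. S100a9 ran from 0.842 to 17.9 CPM among basal cells and reached 0.330 or less elsewhere, and Csf3r, Cxcr2, Ly6g, Retnlg, Ngp and Elane were each at most 0.263 CPM in every lineage and library.

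Lcn2 was the gene with the most UMIs of all genes in HR- luminal cells of each of the 4 libraries. Its level was 36735, 35112, 33370 and 30602 CPM (wild-type control, wild-type HU, Brca2mut/WT control, Brca2mut/WT HU), which is 3.06% to 3.67% of all UMIs. In basal cells it was 4943, 3472, 5107 and 5131 CPM in the same order, and in HR+ luminal cells 3846, 1373, 2129 and 1867. HR- luminal cells did not overlap the other lineages, as their lowest library was above the highest basal and the highest HR+ luminal library. Basal and HR+ luminal libraries overlapped. At 5000 UMIs a cell, Lcn2 was seen in 99.9% to 100% of HR- luminal cells but also in 97.9% to 99.8% of basal cells, with the depth before thinning given above, so that the share of cells tells little about the lineages and the level tells more.

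Cells of the other lineages in a droplet run pick up free RNA of the abundant cell type. The milk protein genes Lalba and Csn3 served as a measure of this. Lalba in basal cells was 2.47% to 5.17% of its HR- luminal level and Csn3 6.18% to 8.34%. Lcn2 in basal cells was 9.89% to 16.8% of its HR- luminal level, above both ranges but overlapping those of the HR- luminal markers Mfge8 (13.3% to 19.1%) and Elf5 (9.75% to 13.7%), so that its basal counts cannot be told apart from free RNA by this measure. Fcgbp (3.68% to 9.53%), Saa1 (3.52% to 6.73%) and Saa2 (1.42% to 5.38%) lay within or near the ranges of the milk genes. Whether the basal counts of Lcn2, Fcgbp, Saa1 and Saa2 come from basal cells or from free RNA was not tested. The shares of Cd14 (16.8% to 32.3%), Wfdc3 (22.8% to 66.9%) and Ptx3 (45.2% to 81.2%) were above those of both milk genes, and those of Wfdc3 and Ptx3 also above that of Mfge8.

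**Figure D1:**
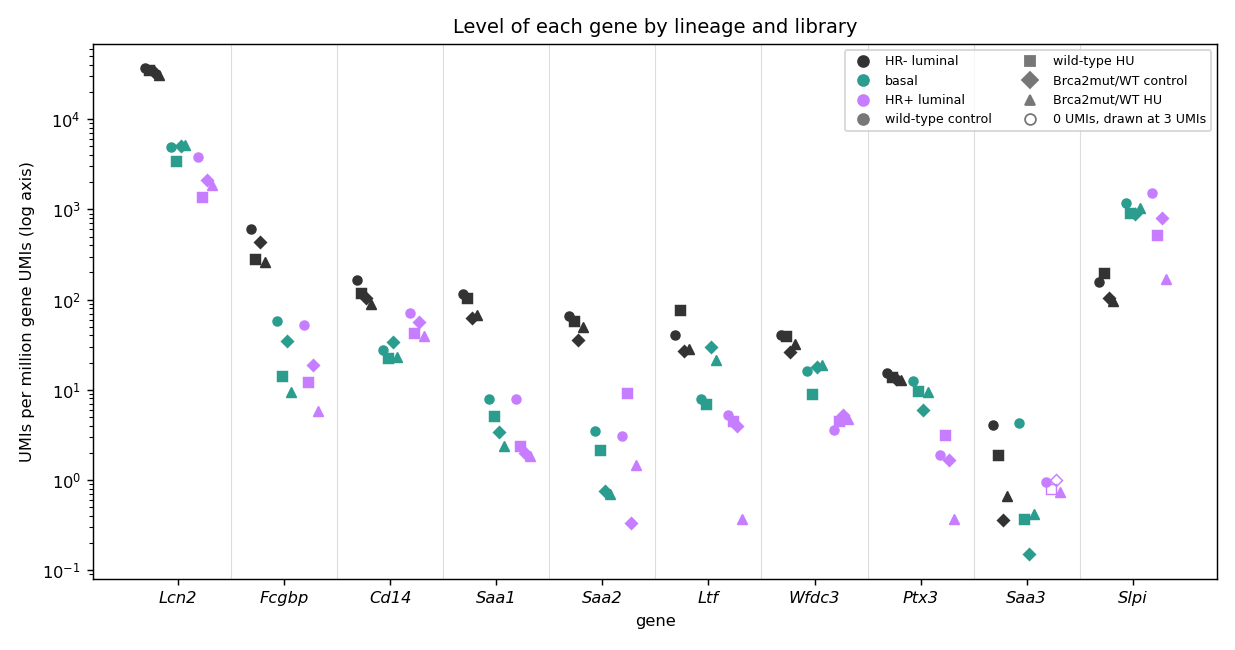
Level of each of the 10 genes (CPM, log axis) in HR- luminal, basal and HR+ luminal cells, 1 point per library and lineage. Lcn2, Fcgbp, Saa1, Saa2 and Cd14 were above the other lineages in HR- luminal cells of all 4 libraries, and Slpi was below the basal level in all 4.

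Lineages were compared with edgeR's quasi-likelihood test on UMIs summed per library and lineage, with the library as a block and p-values adjusted over all 13251 genes tested. All 10 genes passed the low count filter. Between HR- luminal and basal cells 8 of the 10 were called higher in HR- luminal cells (adjusted p under 0.05), 1 was called lower and 1, Saa3, was not called. For all genes 33.3% were called higher and 32.4% lower, and the median log2 fold change was 1.96 over the 10 genes and 0.0094 over all genes. Against HR+ luminal cells 9 were called higher and 1 lower in HR- luminal cells, beside 34.2% and 31.2% of all genes.

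The acute phase genes Saa1 and Saa2 had the widest gap between HR- luminal and basal cells. Saa1 was at 116, 104, 62.6 and 67.7 CPM in HR- luminal cells (wild-type control, wild-type HU, Brca2mut/WT control, Brca2mut/WT HU), at 2.39 to 7.82 in basal cells and at 1.83 to 7.82 in HR+ luminal cells. Its log2 fold change over basal was 4.38 ± 0.15 (SE, adjusted p = 2.19e-09, edgeR). Saa2 was at 65.6, 58.1, 35.4 and 49.4 CPM in HR- luminal cells against 0.702 to 3.53 in basal cells, a log2 fold change of 4.94 ± 0.30 (adjusted p = 9.33e-08, edgeR). Neither gene's HR- luminal libraries overlapped those of another lineage. Saa3 was near the limit of detection, at 4.10, 1.88, 0.358 and 0.662 CPM in HR- luminal cells and 4.30, 0.366, 0.149 and 0.421 in basal cells, and its difference was not called (0.89 ± 0.42 on the log2 scale, adjusted p = 0.0856, edgeR). In HR+ luminal cells Saa3 had 0 UMIs in wild-type HU and Brca2mut/WT control, where 3 UMIs would be 0.788 and 0.99 CPM.

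Of the mucus and iron genes, Fcgbp was at 612, 282, 440 and 259 CPM in HR- luminal cells against 58.4, 14.4, 35.2 and 9.54 in basal cells (log2 fold change 4.12 ± 0.22, adjusted p = 3.15e-08, edgeR). Lcn2 had a log2 fold change of 3.02 ± 0.20 over basal (adjusted p = 1.61e-07, edgeR) and 4.16 ± 0.21 over HR+ luminal cells (adjusted p = 2.25e-08, edgeR). Ltf was far less abundant than Lcn2, the other iron-binding protein, at 40.4, 75.8, 26.8 and 28.4 CPM in HR- luminal cells. In basal cells it was at 7.82 and 6.89 CPM in the wild-type control and HU libraries but at 29.8 and 21.2 in those of Brca2mut/WT, where its HR- luminal and basal levels overlapped. Its HR- luminal against basal fold change was 1.63 ± 0.50 (log2, adjusted p = 0.0129, edgeR), and the call was lost without wild-type control (1.32, adjusted p = 0.0788) or without wild-type HU (0.96, adjusted p = 0.0747), under DESeq2 (1.42, adjusted p = 0.102) and with no upper gene limit (0.09, adjusted p = 0.831). The share of basal cells with an Ltf UMI at 5000 UMIs a cell was 2.20%, 2.20%, 2.36% and 2.43% in the same 4 libraries, so that the higher basal level in Brca2mut/WT was carried by a similar share of cells. The Brca2mut/WT basal groups held 320 cells each, with 200 Ltf UMIs in control and 151 in HU. Their shares therefore rest on few cells.

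The endotoxin co-receptor Cd14 was at 166, 119, 105 and 89.6 CPM in HR- luminal cells, at 22.6 to 33.8 in basal cells and at 39.2 to 70.1 in HR+ luminal cells. It was called higher in HR- luminal than in basal cells (log2 fold change 2.30 ± 0.14, adjusted p = 7.74e-08, edgeR) and was the 1 gene of the 10 called lower in basal than in HR+ luminal cells (-0.91 ± 0.15, adjusted p = 0.000447, edgeR). That second call was lost (-0.46, adjusted p = 0.103) without cells holding 2 or more UMIs of markers of fibroblasts, macrophages, lymphocytes or endothelium, which removes 41 to 86 HR+ luminal cells a library. Nearly all such UMIs in HR+ luminal cells were of Dcn (702 to 1661 CPM), with Lum and Col3a1 at 0 in all 4 libraries and Col1a1 and Col1a2 at most 0.237 CPM. Of the other innate genes, Wfdc3 was at 40.1, 39.5, 26.5 and 32.3 CPM in HR- luminal cells, with basal cells at 8.98 to 18.8 (log2 fold change 1.36 ± 0.21, adjusted p = 0.00014, edgeR). Ptx3 was at 12.9 to 15.2 CPM in HR- luminal and 5.96 to 12.4 in basal cells (0.70 ± 0.16, adjusted p = 0.00245, edgeR, and 0.48, adjusted p = 0.162, with no upper gene limit) and at 0.366 to 3.15 CPM in HR+ luminal cells.

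Between basal and HR+ luminal cells 3 of the 10 genes were called higher in basal cells (Lcn2, Wfdc3 and Ptx3) and 1 lower (Cd14), beside 27.3% and 26.7% of all genes. The Lcn2 difference (1.14 ± 0.19 on the log2 scale, adjusted p = 0.000378, edgeR) was not called by DESeq2 (1.14, adjusted p = 0.142), nor by edgeR with no upper gene limit and up to 10% mitochondrial UMIs (0.29, adjusted p = 0.103), and was called in the other 12 of 14 alternatives. The part of free RNA in the Lcn2 counts of these lineages was not tested.

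Slpi, an inhibitor of neutrophil elastase, ran the other way. It was at 158, 200, 103 and 97.5 CPM in HR- luminal cells, whereas basal cells had 1164, 911, 878 and 1034 CPM, with no overlap, and was called lower in HR- luminal cells (log2 fold change -2.77 ± 0.41, adjusted p = 0.000116, edgeR). At 5000 UMIs a cell, 50.7% to 68.9% of basal cells had a Slpi UMI against 11.4% to 20.6% of HR- luminal cells. In HR+ luminal cells its level varied most between libraries, at 1532, 514, 801 and 171 CPM, and its difference from basal cells was not called (0.70 ± 0.40, adjusted p = 0.165, edgeR). The summed level of 8 markers of squamous differentiation also differed, at 34.7 to 51.9 CPM in HR- luminal, 828 to 2327 in basal and 1277 to 3627 in HR+ luminal cells. The markers did not move together. Krt6a had the highest range in basal cells (500 to 1301 CPM) and Sprr1a in HR+ luminal cells (887 to 3291). Krt10 was at 10.2 to 16.8 CPM in HR+ luminal and 16.3 to 19.3 in HR- luminal cells.

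Slpi was not limited to cells with those markers. In basal cells with 0 squamous marker UMIs it was at 1917, 1125, 896 and 1119 CPM in the order of libraries above, against 879, 877, 534 and 689 CPM in basal cells with 5 or more. In HR- luminal cells the order was the reverse, at 158, 185, 77.9 and 107 CPM without squamous UMIs and 283, 473, 1768 and 767 CPM in the 21 to 50 cells a library with 5 or more. Lcn2 was lower in cells with 5 or more squamous UMIs in all 3 lineages of all 4 libraries. The cut on UMIs depends on depth and can rest on different markers in each lineage, and this split was added after the Slpi levels were seen.

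**Figure D2:**
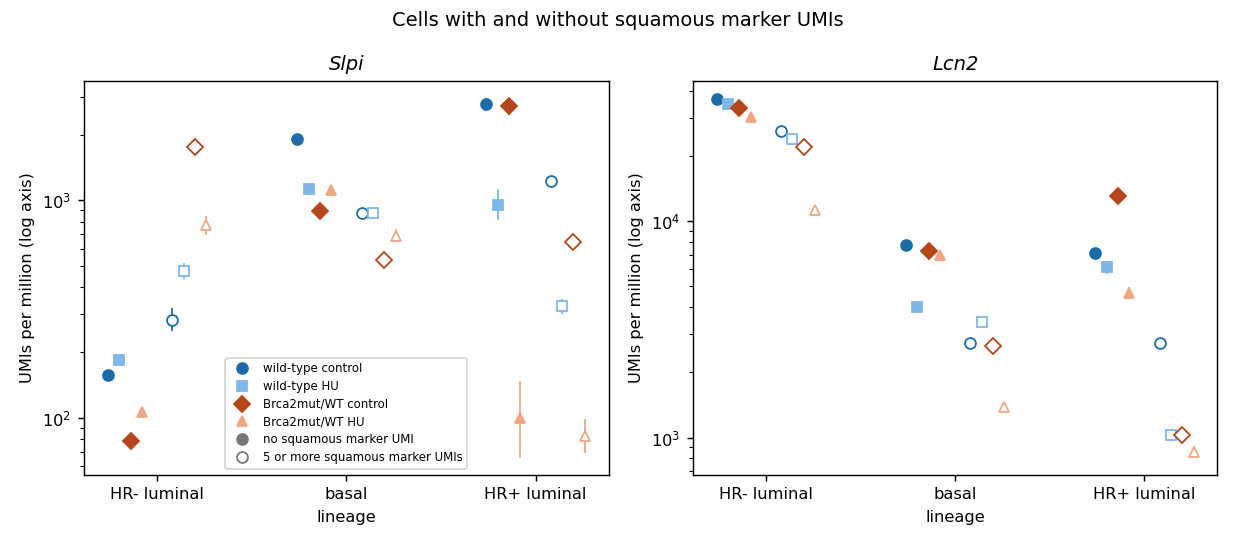
Slpi and Lcn2 (CPM, log axis) by lineage, in cells with 0 (filled) and with 5 or more (open) squamous marker UMIs, 1 point per library with its 95% Poisson interval. Slpi was higher in basal cells without squamous UMIs than in those with 5 or more in all 4 libraries, and Lcn2 was lower with squamous UMIs in every lineage.

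Other genes of innate defense showed no common direction between HR- luminal and basal cells. Of 27 other antimicrobial and secreted defense genes tested (of 42 listed), 13 were called higher and 10 lower in HR- luminal cells (median log2 fold change 0.41). For all genes 33.3% were called higher and 32.4% lower between these lineages. The iron storage subunit Fth1 (22467 to 30004 CPM in HR- luminal cells, log2 fold change 2.31), the chitinase-like gene Chil1 (6688 to 7475 CPM, 2.90) and the peptidoglycan-binding gene Pglyrp1 (2364 to 4342 CPM, 3.60) were the most abundant and all were called higher. The widest changes were lower levels in HR- luminal cells, of Wfdc12 (-5.03), the ribonuclease gene Rnase4 (-4.82) and Ang (-4.49), which were at 7.21 to 37.7, 52.3 to 134 and 1.64 to 3.86 CPM in basal cells.

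Of 16 endotoxin sensing genes tested (of 20), 8 were called higher and 3 lower (median 0.29), beside 33.3% and 32.4% of all genes. Levels were low, the highest being Irak1 at 28.0 to 34.3 CPM in HR- luminal cells, which was not called (0.08, adjusted p = 0.437, edgeR). The double-stranded RNA sensor Tlr3 (23.7 to 29.1 CPM, 1.01) and Ly96 (16.8 to 18.1 CPM, 0.39) came next. Irak3 (1.87) and Nod1 (1.22) were higher and the flagellin receptor Tlr5 lower (-1.74) in HR- luminal cells.

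The NF-kB response list leaned the other way, with 4 of 27 tested genes (of 30) called higher and 15 lower (median -0.32). The shares over all genes were 33.3% higher and 32.4% lower. Sod2 (298 to 317 CPM in HR- luminal cells) was not called (0.11, adjusted p = 0.515, edgeR), the inhibitor Nfkbia was lower (-0.37) and the interleukin 17 receptor subunit Il17re higher (1.06). The adaptor Traf1 was at 46.0 to 71.9 CPM in HR- luminal and 3.81 to 6.60 in basal cells (3.53), whereas the adhesion gene Icam1 (-3.33) and the chemokine Cxcl5 (-3.04) were lower. Of 18 interleukin 6 family and STAT3 genes, 7 were called higher and 7 lower (median 0.13), near those shares. Cebpb, a C/EBP factor, was at 860 to 910 CPM in HR- luminal and 507 to 675 in basal cells (0.71, adjusted p = 2.34e-05, edgeR). Junb (345 to 432 CPM) and Cebpd (176 to 214 CPM) were not called (adjusted p = 0.699 and 0.09, edgeR). The feedback inhibitor Socs3 (-2.13) and the receptor subunit Lifr (-1.73) were lower and Il6ra (1.58) higher in HR- luminal cells.

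**Figure D3:**
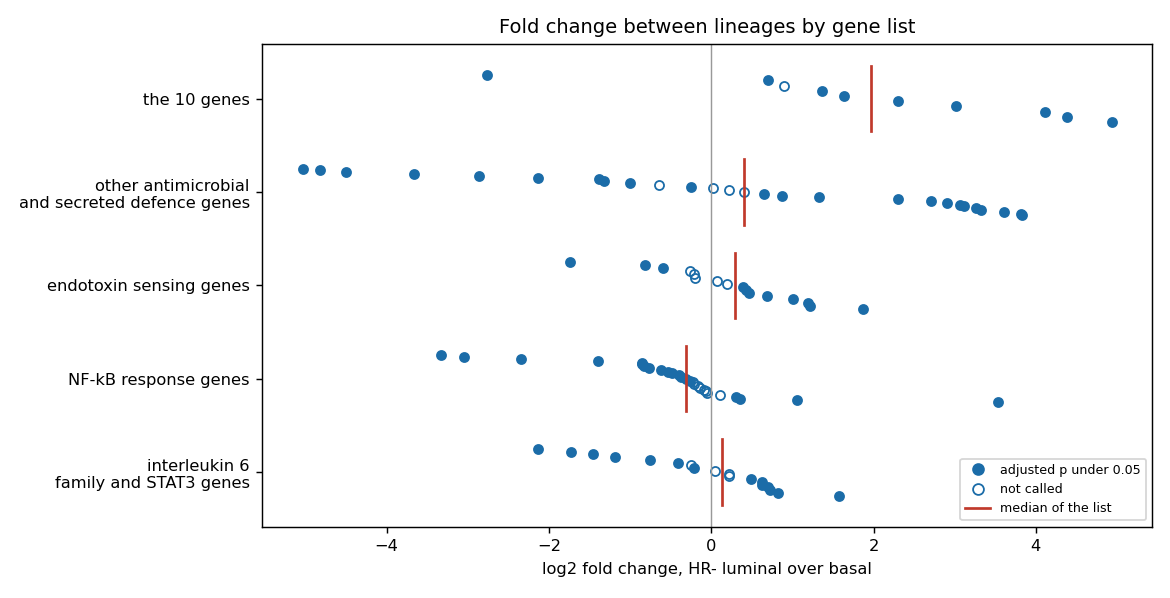
Log2 fold change between HR- luminal and basal cells for each tested gene of the 5 lists. Filled points were called (adjusted p under 0.05, edgeR), open points were not, and the red bar is the median of the list, which was 1.96 for the 10 genes and -0.32 for the NF-kB response genes.

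Lcn2 was seen in nearly every HR- luminal cell. It made up a median of 3.48%, 3.32%, 2.93% and 2.72% of the UMIs of a cell in the 4 libraries, with the 10th and 90th percentiles at 1.64% and 5.39% in wild-type control. At 5000 UMIs a cell the 10% of cells with most held 17.6% of all Lcn2 UMIs in the wild-type control library and 19.6% in the Brca2mut/WT control library. The 10% of cells with most Fcgbp held 43.7%, 58.4% and 55.2% of its UMIs in wild-type control, wild-type HU and Brca2mut/WT control. The 10% with most Slpi held 88.1%, 92.0% and 97.4% of its UMIs. The cells were ranked anew for each gene. Such shares rise as a gene gets sparser, so that they can be set side by side for genes of like counts. Slpi and Cd14 had 3630 and 3548 UMIs in the thinned cells of wild-type control. The 10% of cells with most of the gene in question held 88.1% for Slpi and 53.9% for Cd14. Saa1 was seen in 15.9%, 13.6%, 9.59% and 10.3% of thinned HR- luminal cells, Saa2 in 8.47%, 7.20%, 5.54% and 5.29%, Ltf in 9.08%, 11.6%, 6.05% and 6.35% and Cd14 in 41.2%, 30.8%, 29.3% and 25.8%.

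Saa1 and Saa2 tended to be in the same cells, with a Spearman correlation of 0.37 to 0.41 over thinned HR- luminal cells of the 4 libraries. Lcn2 and Fcgbp had 0.18 to 0.39. These are descriptions over cells of equal depth taken from all tag pools of a library, and the differences between pools given next enter both values.

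Antibody tags divided each library into 4 pools of cells, and the level of several genes varied widely between pools. Pool sizes in HR- luminal cells ran from 121 to 1755 cells. No key to the tags was given, so that pools are treated as unlabelled, and whether tag 1 marks the same kind of cells in every library is not known here. Fcgbp was at 308 to 848 CPM in the pools of tags 1 and 3 and at 8.48 to 46.6 CPM in those of tags 2 and 4, with no overlap over the 16 pools. The summed level of the 6 HR- luminal markers moved with this, at 26037 to 30491 CPM in the pools of tags 1 and 3 and 9020 to 19688 in those of tags 2 and 4, and its part in the Fcgbp level was not tested. For Lcn2, the range over the 16 pools was 20948 to 41672 CPM, with a median of 32623.

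The pool of tag 2 stood apart in both Brca2mut/WT libraries. Saa1 was there at 2.59 CPM in control and 6.11 CPM in HU, whereas the other 14 pools had 43.7 to 414. Cd14 was at 27.8 and 33.3 CPM there against 56.6 to 182 elsewhere, and Wfdc3 at 2.15 and 2.17 against 11.3 to 52.2 elsewhere. Lcn2 and Ltf had their lowest levels in these pools as well, Lcn2 at 20948 and 21278 CPM and Ltf at 3.14 and 3.55 CPM. In wild-type control the pool of tag 2 (214 cells) had the highest Saa1 of all (414 CPM), the highest Saa2 (295 CPM) and the highest Saa3 (49.1 CPM, against at most 7.62 elsewhere). Fibroblast markers summed to 55.3 CPM there, nearly all of it Dcn, and to at most 12.8 CPM in the other pools, and squamous markers to 132 CPM. Squamous markers summed to 26.5 to 138 CPM in the other pools, the highest being the tag 4 pool of Brca2mut/WT HU, where Saa1 was at 97.0 CPM and Saa3 at 2.84. The part of these markers in the Saa levels was not tested.

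**Figure D4:**
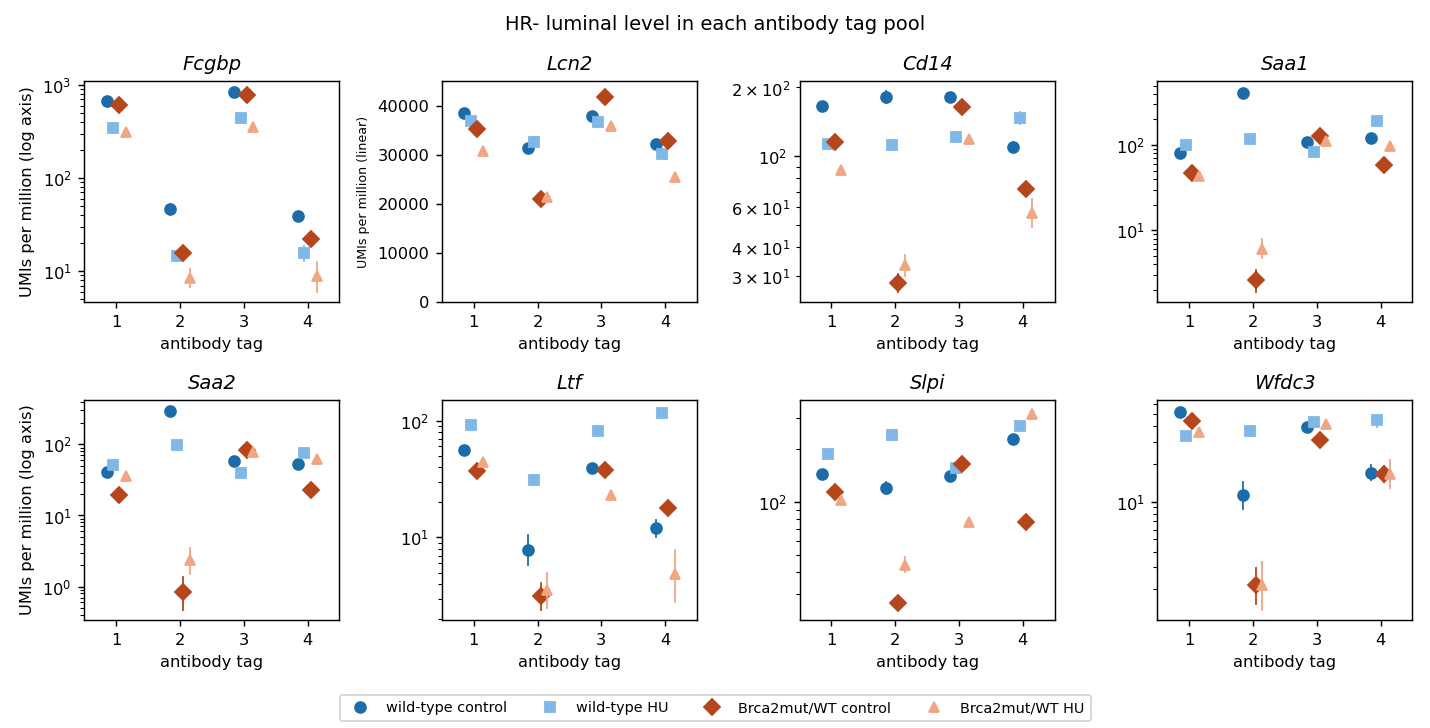
Level of 8 genes in HR- luminal cells of each antibody tag pool (CPM, log axis, linear for Lcn2), with 95% Poisson intervals, colored by library. Fcgbp lay between 308 and 848 for tags 1 and 3 and between 8.48 and 46.6 for tags 2 and 4, and Saa1, Saa2, Cd14 and Wfdc3 were lowest for tag 2 of both Brca2mut/WT libraries.

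Over the 16 pools, the genes whose log2(CPM + 1) followed each of the 10 most closely were named from 6527 genes with at least 20 CPM in 1 pool. Pools share libraries and perhaps mice, so these are descriptions. Saa1 and Saa2 were closest to each other (Pearson r = 0.98), and Ly6d was among the 3 closest to each (0.91 and 0.87). Fcgbp was followed by Lpgat1, the acute phase gene Lrg1 and Cyp2d22 (r = 0.98, 0.98 and 0.97), with Lrg1 running from 54.0 to 492 CPM. Lcn2 was followed by Itga3, Fth1 and the casein gene Csn1s1 (0.95, 0.94 and 0.94), and Cd14 by Ace, Lcn2 and Arhgdib (0.90, 0.88 and 0.88). Wfdc3 was closest to Lgals7 (0.96), Slpi to Gch1 (0.93), Saa3 to Tgfa (0.90) and Ltf to Nbdy (0.89). Ptx3 was closest to Acot13, at a lower r (0.65). Saa3 had a median of only 0.464 CPM over the pools, with a highest level of 49.1.

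The response to HU was compared within each genotype. With 1 library a condition there is no test between conditions: the values compare libraries, and intervals cover counting error only. A gene was counted as past the fold when its level differed by at least 1.5 times and reached 20 CPM in 1 of the 2 libraries, which 8 of the 10 genes did in HR- luminal cells (Ptx3 and Saa3 did not). In all comparisons between conditions, shares of all genes are over the genes that reached the same 20 CPM limit, 5381 to 5469 a comparison. Pools of the same tag number are not known to match between libraries and are not replicates of a condition. The share of all genes with the same direction in every pool was not computed. In wild type 1 of these 8 was past the fold upward with HU and 1 downward, beside 0.520% and 0.632% of all genes. In Brca2mut/WT 0 were past it upward and 1 downward, beside 0.347% and 0.695%.

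Fcgbp was the gene past the fold downward in both genotypes. In wild type it was at 612 CPM in control and 282 in HU (log2 ratio -1.12, 95% Poisson interval -1.14 to -1.10), and in Brca2mut/WT at 440 and 259 (-0.76, -0.79 to -0.74). It was lower with HU in 4 of 4 pools of the same tag number in wild type, by ratios of 0.315 to 0.521, and in 4 of 4 in Brca2mut/WT, by 0.395 to 0.539. The tag 1 and 3 pools of the HU libraries (308 to 442 CPM) did not overlap those of the control libraries (612 to 848 CPM). Leaving out tag pool 3 took Fcgbp in Brca2mut/WT inside the fold.

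Ltf was the gene past the fold upward in wild type. It was at 40.4 CPM in wild-type control and 75.8 in wild-type HU (log2 ratio 0.91, 0.85 to 0.96), higher in 4 of 4 pools of the same number by ratios of 1.62 to 9.69. In Brca2mut/WT it was at 26.8 and 28.4 CPM (0.08, -0.0033 to 0.17), with 2 pools higher and 2 lower. Whether the genotypes differ in this was not tested. Slpi was also higher in 4 of 4 wild-type pools but within the fold (158 and 200 CPM). Cd14 was lower with HU in both genotypes (log2 ratio -0.49 and -0.23) and in 3 of 4 pools of each, and Lcn2 had log2 ratios of -0.07 and -0.12.

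Brca2mut/WT was compared with wild type without and with HU. Without HU, 6 of the 8 genes were past the fold downward in Brca2mut/WT and 0 upward, beside 0.333% and 0.610% of all genes. They were Saa1 (62.6 against 116 CPM, log2 ratio -0.89), Saa2 (35.4 against 65.6, -0.89), Cd14 (105 against 166, -0.67), Slpi (103 against 158, -0.61), Wfdc3 (26.5 against 40.1, -0.60) and Ltf (26.8 against 40.4, -0.59). The count was 0 when the cells of tag 2, 214 in wild-type control and 684 in Brca2mut/WT control, were left out of both libraries. The log2 ratios were then -0.32 for Saa1, -0.21 for Saa2, -0.40 for Cd14, -0.38 for Slpi, -0.34 for Wfdc3 and -0.36 for Ltf, still below 0. In pools of the same number, Cd14, Wfdc3 and Fcgbp were lower in Brca2mut/WT in 4 of 4, and Saa1, Saa2, Slpi and Ltf in 3 of 4. With another way of calling tags, Wfdc3 was lower in 3 of 4.

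With HU, 3 of the 8 genes were past the fold downward in Brca2mut/WT and 0 upward, beside 0.407% and 0.500% of all genes. Ltf was at 28.4 CPM against 75.8 (log2 ratio -1.42, -1.49 to -1.34) and Slpi at 97.5 against 200 (-1.03, -1.07 to -0.99), and these stayed past the fold without tag 2 (-1.42 and -0.83). Saa1 was at 67.7 against 104 CPM (-0.62) and came inside the fold without tag 2 (-0.36). Ltf, Lcn2, Cd14 and Fcgbp were lower in Brca2mut/WT in 4 of 4 pools of the same number. Slpi, Saa1, Saa2 and Wfdc3 were lower in 3 of 4. In the tag 4 pools Slpi was higher in Brca2mut/WT, at 314 against 269 CPM. In the tag 3 pools the ratio was close to 1 for Lcn2 (0.982) and Cd14 (0.983). The share of all genes lower in every pool was not computed. These comparisons share libraries with those of HU, so that the wild-type HU level of Ltf enters both.

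**Figure D5:**
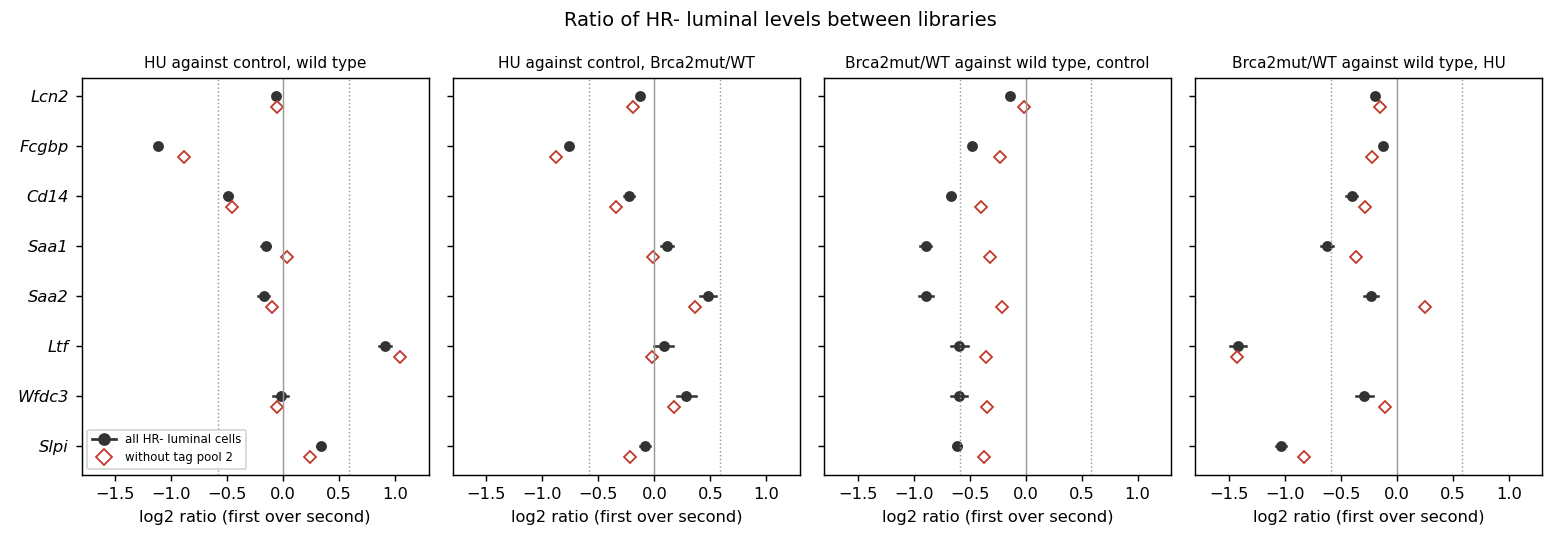
Log2 ratio of HR- luminal levels between libraries for the 8 genes that reached 20 CPM, with all cells (black, 95% Poisson interval) and without tag pool 2 (red). Dotted lines mark 1.5-fold, which 6 genes passed downward in Brca2mut/WT control against wild-type control with all cells and 0 without tag pool 2.

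Of the 42 other antimicrobial genes, 16 reached 20 CPM. In wild type, 3 of the 16 were past the fold downward with HU and 0 upward, beside 0.632% and 0.520% of all genes, with Pigr, the receptor that carries antibodies into milk, at 59.7 CPM in control and 12.5 in HU (log2 ratio -2.26) and the haptoglobin gene Hp at 22.8 and 10.5 (-1.11). In Brca2mut/WT, 2 of the 16 were past it downward and 1 upward, beside 0.695% and 0.347% of all genes. Pglyrp1 was past the fold downward, at 4342 CPM in control and 2410 in HU (-0.85), as was Pigr at 40.9 and 26.3 (-0.64), whereas S100a8 was at 12.9 and 21.3 CPM (0.73). Of the NF-kB response list, 12 genes reached 20 CPM in wild type and 10 in Brca2mut/WT. With HU, 1 was past the fold downward in each genotype and 0 upward. This was the chemokine Cxcl1, in wild type (64.2 CPM in control and 42.3 in HU, -0.60) and in Brca2mut/WT (51.5 CPM in control, log2 ratio -1.36). In Brca2mut/WT against wild type without HU, 1 of the 16 antimicrobial genes was past it downward and 0 upward, beside 0.333% and 0.610% of all genes. With HU 1 was past it in each direction, beside 0.407% and 0.500%. Of 11 NF-kB response genes, 0 were past the fold without HU, and 2 downward and 0 upward with HU. Only 2 of the 20 endotoxin sensing genes and 9 to 10 of the 18 interleukin 6 and STAT3 genes reached 20 CPM, and 0 of these were past the fold in the 4 comparisons.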

How the data were processed

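Droplet single-cell RNA-seq of mammary organoids was deposited as 1 filtered matrix per library with genes and 4 antibody tags. The deposited UMI counts per gene and cell were made by the authors with Cell Ranger (6.0.2 in the submitters' processing notes, 6.1.1 in the matrix header) on mm10 and were not normalized. The study states 34200 cells after quality control, whereas the matrices held 33268 barcodes and the study's stated limits left 17360 of them here, so that those limits do not give the study's count. Of the barcodes, 129 of 33139 distinct sequences (0.389%) occurred in 2 or more libraries. Columns that could not be matched to a sample numbered 0.

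The study's limits were applied to cells, 1000 to 6000 detected genes with mitochondrial transcripts below 5% of UMIs. This removed 1969 to 2376 barcodes a library for too many genes. No doublet caller was run. Cells with 1 tag above a cut from a 2-component mixture formed the tag pools, and 457 kept cells of no lineage and 109 of both were left out of the lineages. Gene UMIs of kept cells totalled 82186830 to 126866429 a library. Levels are CPM of summed UMIs with exact Poisson 95% intervals, shares used cells thinned to 5000 UMIs, and intervals cover counting error only. For thinning, 9 to 288 cells per library and lineage were too shallow and were left out.

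Lineages were compared with edgeR 4.0.16 (R 4.3.3) on 12 sums, TMM scaling, filterByExpr, library as block, Benjamini-Hochberg over all genes. SE is the log2 fold change over the square root of F. Labels do not say whether libraries are separate cultures, so p-values measure the spread between these libraries. The test was tried on simulated counts. Alternatives were DESeq2 1.42.0, other scaling, filters, gates and left-out libraries or tag pools.

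Named genes were the 10 genes, for each list the 3 highest in HR- luminal cells, the 3 with the widest called change from basal, and those with the 2 largest rises and falls per condition comparison, and the genes nearest each of the 10 over pools. The members, lists and tests were chosen with earlier results of these data known. The squamous split and the lineage fit without tag pool 2 were added after seeing the data. Promoters are RefSeq, GRCm38.p6.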

Additional observations from a re-analysis of the deposited data

Results flagged for a closer look

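For 4 of the 10 genes, HR- luminal levels in the HU libraries differed from control in opposite directions in the 2 genotypes. Each was beyond its counting interval, and the difference was not tested because each condition is 1 library. For Slpi, Saa1 and Saa2 the UMI counts are high and the interval is narrow, so that small ratios pass it. How many of all genes do the same was not counted, so that 4 of 10 cannot be called unusual. Slpi had a log2 ratio of HU to control of 0.33 in wild type and -0.086 in Brca2mut/WT. Saa1 had -0.16 and 0.11, Saa2 -0.18 and 0.48, and Saa3 -1.13 and 0.89 in the same order. Saa3 was under the 20 CPM limit, with 426 UMIs in control and 161 in HU in wild type. In Brca2mut/WT it had 31 and 47. In pools of the same tag number, Slpi was higher with HU in 4 of 4 wild-type pools and in 2 of 4 of Brca2mut/WT, Saa1 in 2 of 4 of each genotype, Saa2 in 2 of 4 and 3 of 4, and Saa3 in 1 of 4 and 2 of 4. Without tag pool 2 the ratios were 0.24 and -0.22 for Slpi, 0.04 and -0.01 for Saa1, -0.10 and 0.36 for Saa2 and -0.41 and 1.10 for Saa3, so that Saa1 no longer kept its signs.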

How the results depend on the processing

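Under 14 alternatives, Lcn2, Fcgbp, Saa1, Saa2, Cd14, Wfdc3 and Slpi kept their direction and call between HR- luminal and basal cells, whereas Ltf was called in 10 and Ptx3 in 13. With no upper gene limit and up to 10% mitochondrial UMIs, Ltf was at 0.09 (adjusted p = 0.831), Ptx3 at 0.48 (adjusted p = 0.162), and the sign turned for Saa3 between HR- and HR+ luminal cells (-0.079) and, between basal and HR+ luminal cells, for Saa1 (-0.49), Saa3 (-1.94) and Fcgbp (-0.010). Saa2 turned between basal and HR+ luminal cells without wild-type HU (0.20, and -1.53 to 0.20 over the 4 left-out libraries) and in cells with 1 tag (0.40). The 10 genes called lower in basal than in HR+ luminal cells numbered 1, but 2 with the wider cell filter and 0 without cells holding markers of other cell types. The cause was not tested. Saa3 was given an adjusted p in 8 of the 14.

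Between conditions, the count of genes past the fold downward with HU in wild type was 1, and 2 with pools weighted equally. In Brca2mut/WT the count upward was 0, and 1 without tag pool 1 or 3, and the count downward was 1, and 0 without tag pool 3. Brca2mut/WT against wild type gave 6 downward without HU, and 0 without tag pool 2. With HU it gave 3, and 5 without tag pool 3 or with pools weighted equally. The other tag call took a cell's top tag when it was at least 3 times the second. Under it the counts over same-numbered pools stayed the same, except for Wfdc3 without HU. Wfdc3 was then lower in Brca2mut/WT in 3 of 4 pools, not 4 of 4.

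No paired analysis was possible because each condition is 1 library and the labels do not mark the replicates within it, so that conditions share no numbered samples. Lineages were compared within libraries. The fit without the library as block changed the call of Saa3 between HR- and HR+ luminal cells (2.22, adjusted p = 0.233) and of Ltf between basal and HR+ luminal cells (2.08, adjusted p = 0.0273). Depth limits Saa3, Ptx3 and all counts in HR+ luminal cells, where 3 UMIs are 0.711 to 1.10 CPM.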
